A study of Homo sapiens with 12 samples.

Results

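The human matrix metalloproteases (MMPs), the ADAMTS proteases and their tissue inhibitors (TIMPs) were followed through 12 RNA-seq libraries of SW872 cells, a human liposarcoma line from ATCC, in which one of 2 fusion proteins was stably expressed together with a short hairpin. Members were the rows of the count table whose symbol was MMP or ADAMTS followed by a number alone, or TIMP1 to TIMP4. Chosen with earlier results of these data known, the rule found 45 genes (22 MMPs, 19 ADAMTSs and 4 TIMPs) among 58735 by symbol alone. Of these, 32 had a mean of at least 5 raw counts over the 12 libraries and were tested (13 MMPs, 16 ADAMTSs and 3 TIMPs), and 13 were not. The TC lines carried TAZ-CAMTA1 and the YT lines carried YAP-TFE3, the fusions found in epithelioid hemangioendothelioma. Each was combined with a non-targeting hairpin (shNT), a hairpin against YEATS2 (shYEATS2) or a hairpin against ZZZ3 (shZZZ3), which gave 6 groups of 2 libraries: TC shNT, TC shYEATS2, TC shZZZ3, YT shNT, YT shYEATS2 and YT shZZZ3. YEATS2 and ZZZ3 belong to the ATAC complex, a histone acetyltransferase. The study describes its fusion lines and its hairpin lines as pools of stable cells, selected in G418 and puromycin, and not as single clones. Every library came from a fusion-expressing line, so a fusion-free SW872 level was not part of these comparisons.

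MMPs and ADAMTSs are zinc-dependent proteases of the metzincin group, most of them secreted as inactive proenzymes and switched on by removal of the propeptide. MMPs cleave collagens, gelatin, laminins and fibronectin, and the membrane-type MMPs do so at the cell surface. ADAMTSs carry thrombospondin repeats and cleave versican and aggrecan, trim procollagens, or act on other matrix glycoproteins. TIMPs bind the active site of these proteases and stop them, and TIMP3 stays attached to the matrix and is the TIMP best known for inhibiting ADAMTSs. In sarcomas and other mesenchymal tumours these enzymes are studied for their part in invasion and in the turnover of the stroma.

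Libraries held between 17451893 and 29294805 counts. The hairpin targets were examined first. Levels are given as CPM, a gene's counts relative to the scaled total of its library. YEATS2 lay at 113 and 123 CPM in TC shNT, at 45.5 and 35.1 in TC shYEATS2, at 115 and 117 in YT shNT and at 33.9 and 38.5 in YT shYEATS2, a fall in both lines (log2 fold change -1.54 ± 0.174, SE, adjusted p = 0.0138 in TC and -1.68 ± 0.174, adjusted p = 0.000104 in YT). ZZZ3, which the table lists under its Ensembl identifier with another symbol, lay at 25.6 and 60.4 CPM in TC shNT, at 21.9 and 22.7 in TC shZZZ3, at 71.2 and 49.1 with the YT control hairpin and at 12.6 and 29.6 in YT shZZZ3. It passed the test in YT (-1.51 ± 0.418, adjusted p = 0.0453) and not in TC (-0.94 ± 0.419, adjusted p = 0.45), where 1 control library lay close to the knock-down level. YT shYEATS2 also had ZZZ3 at 31.4 and 30.7 CPM, below both YT shNT libraries (-0.95 ± 0.417, adjusted p = 0.13). The 2 libraries of TC shNT, of YT shZZZ3 and of TC shYEATS2 stood further apart than those of the other groups (chi-square per degree of freedom 95.7, 86.2 and 48.3, against 9.82 to 16.5). All 7 mesenchymal markers were detected in every library, and they summed to 2145 to 2206 CPM in YT shNT, 3149 to 3543 in YT shYEATS2, 2748 to 3771 in YT shZZZ3 and 2586 to 3487 in the TC groups. VIM lay between 696 and 709 CPM in YT shNT and between 1948 and 1949 in YT shYEATS2, while COL1A1, COL1A2 and THY1 were at most 13.3, 9.2 and 15.4 CPM in YT shNT. PDGFRB went the other way, at 467 to 533 CPM in YT shNT, 213 to 236 in YT shYEATS2 and 251 to 299 in YT shZZZ3. In YT shYEATS2 THY1 was higher (39.6 to 42.6), while COL1A1 (12.9 to 17.2) and COL1A2 (8.87 to 9.45) overlapped YT shNT. Of the 5 adipocyte markers, LEP was at 0 in all 12 libraries, ADIPOQ reached 0.0516 CPM and FABP4 0.296, and PLIN1 (0.284 to 1.55) and CFD (0.127 to 0.946) were detected in every library. The adipocyte list summed to 2.16 to 2.37 CPM in YT shYEATS2 against 1.16 to 1.21 in YT shNT. The epithelial list summed to 16.0 to 18.6 CPM in YT shNT, 8.62 to 9.78 in YT shYEATS2 and 6.94 to 7.86 in YT shZZZ3, with ESRP1 at 13.4 to 14.8 CPM in YT shNT and at most 5.37 in any other library. EPCAM was higher in YT shYEATS2 (1.46 to 1.91 CPM) than in YT shNT (0.633 to 0.898). The same held for CDH1 (0.413 to 0.624 against 0.0575 to 0.317) and GRHL2 (0.208 to 0.31 against at most 0.0528). The leukocyte and macrophage list summed to 7.38 to 7.62 CPM in YT shYEATS2 against 2.42 to 2.59 in YT shNT, from CD14 and LYZ, with PTPRC at no more than 0.158 CPM in any library. ITGAM went the other way, at 0.0832 to 0.155 CPM in YT shYEATS2 against 0.748 to 1 in YT shNT. The endothelial list summed to 154 CPM in both YT shZZZ3 libraries against 49.4 to 51.9 in YT shNT, and to 59 and 269 in TC shYEATS2, with all 5 markers detected in every library. The part of these lists in the results below was not tested.

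The levels of the family spanned several orders of magnitude. Different genes were compared per length, as CPM per kb of exon, averaged over the 12 libraries. The length of a gene counted every annotated exon of all its transcripts. It can exceed the length expressed in these cells, so rankings and ratios between genes are approximate. TIMP1 was the highest member at 212 CPM per kb, with libraries from 147 to 312. TIMP3 followed at 171 with a far wider range, from 62.5 to 344, and the ranges of TIMP1 and TIMP3 overlapped. MMP14, the membrane-type protease that activates proMMP2, stood at 103 (62.1 to 143), TIMP2, which bridges MMP14 and proMMP2 at the cell surface, at 101 (70.6 to 143), and the gelatinase MMP2 at 99.8 (74.6 to 130). The ranges of these 3 components of the proMMP2 activation step overlapped. ADAMTS12 was the highest ADAMTS at 23.4 (10.3 to 32.4), ahead of ADAMTS7, its closest relative, at 9.23 (4.99 to 13.8). MMP15 stood at 12.5 (7.95 to 19), and the leading members of the other classes were lower, ADAMTS15 among the proteoglycan-cleaving ADAMTSs at 3.18, MMP11 among the stromelysins at 2.86, ADAMTS2 among the procollagen N-proteinases at 2.02, MMP1 among the collagenases at 1.22 and ADAMTS10 among the remaining ADAMTSs at 4.71.

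**Figure D1:**
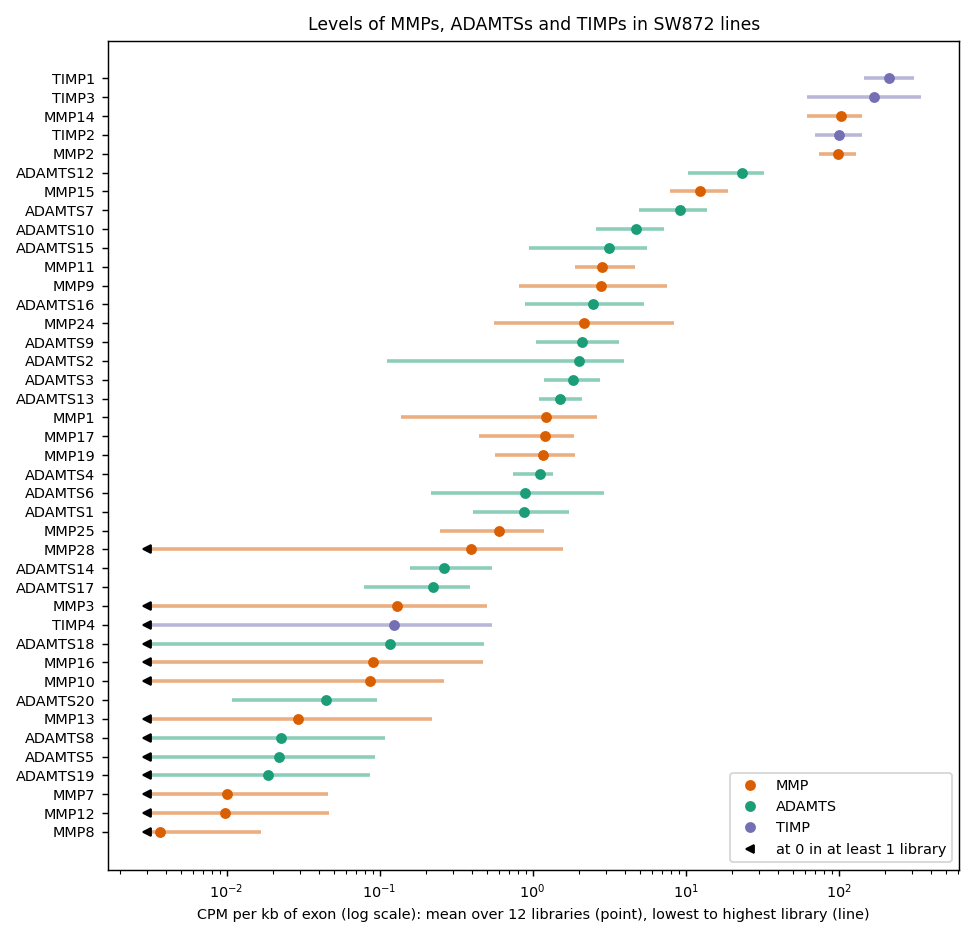
Each row is one member, with its mean CPM per kb of exon over the 12 libraries as a point and its lowest to highest library as a line on a log axis; black triangles mark members at 0 in at least 1 library. TIMP1, TIMP3, MMP14, TIMP2 and MMP2 sit near or above 99.8 CPM per kb, and the 4 members at 0 in all libraries are not drawn.

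Summed per library, MMP14 and MMP2 made up most of the MMP transcript pool. MMP14 gave 35.6% to 41% of it in the 6 TC libraries and 48.2% to 54.4% in the 6 YT libraries, ranges that do not overlap. The summed TIMP level was above the summed MMP level in every library, with a ratio from 1.38 to 3.14. The TC shNT ratios were 1.75 and 1.54, those of TC shZZZ3 2.97 and 2.67. In the YT lines the control ratios were 2.24 and 2.18, beside 3.14 and 2.62 for shYEATS2 and 1.83 and 1.53 for shZZZ3. The shZZZ3 libraries thus lay above their controls in TC and below them in YT. TIMP3 supplied 15.8% and 23% of the TIMP sum for TC shNT but 37.5% and 40.3% for TC shZZZ3. It supplied 51% and 52% for YT shNT but 24% and 29.2% for YT shZZZ3.

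**Figure D2:**
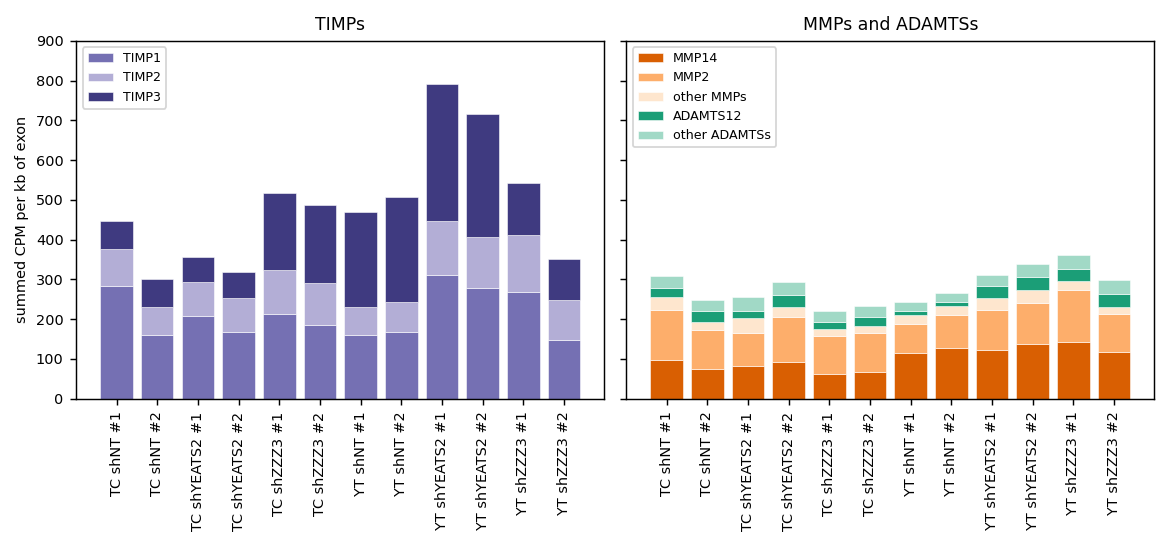
Bars give the summed CPM per kb of exon in each of the 12 libraries (#1 and #2 are the replicates), TIMPs on the left and MMPs with ADAMTSs on the right, stacked by gene from 0. TIMP3 is the part of the TIMP bar that varies most between groups, and YT shYEATS2 has the tallest TIMP bars, at 792 and 717.

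The 13 members below the count minimum were at or near 0. MMP20, MMP21, MMP26 and MMP27 had no count in any library. MMP7, MMP8 and MMP12 reached at most 2 counts, ADAMTS8 11, ADAMTS19 11, MMP10 9, MMP13 12, TIMP4 14 and ADAMTS5 22. ADAMTS5, a main aggrecanase of cartilage, had a mean of 4.92 counts and lay just outside the minimum, while MMP3, stromelysin-1, lay just inside it at 5.08. ADAMTS5 had 0 counts in all 6 TC libraries and 1 to 22 in the 6 YT libraries. ADAMTS19 was likewise at 0 in all 6 TC libraries, with 0 and 2 counts under the YT control hairpin, 3 and 4 under shYEATS2 and 8 and 11 under shZZZ3. TIMP4 stood out in one TC group, with 14 and 13 counts in TC shYEATS2 and at most 4 in any other library. A run of 9 MMP genes lies on the long arm of chromosome 11 (chr11:102520508-102955732, hg38), and 7 of these 9 fell below the minimum. MMP13 had no count in YT shNT and 5 and 12 counts in YT shYEATS2, and as a member below the minimum it is described by its counts only. Within the same run MMP1, interstitial collagenase, had a mean of 72.3 counts, while its neighbours MMP10 and MMP3, with gaps of 8772 and 37640 bases, had 3.33 and 5.08. A like contrast held for ADAMTS15 (446 counts) and ADAMTS8 (2.33), 20035 bases apart on chromosome 11, and for ADAMTS1 (143) and ADAMTS5 (4.92), 72512 bases apart on chromosome 21.

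The knock-downs were compared with their own shNT line, to ask which members depend on the ATAC subunits in each fusion line. Genes were called at an edgeR adjusted p under 0.05 over all 18415 genes tested. In TC shYEATS2 no member was called by edgeR or by DESeq2 (background 0.0434% of all genes called, 0.0326% higher and 0.0109% lower), 5 had an unadjusted p under 0.05, and the lowest adjusted p was 0.434. In TC shZZZ3 1 of 32 members was called, TIMP3, which was higher (3.12% of members, background 1.53%, 0.934% higher and 0.592% lower), and 13 had an unadjusted p under 0.05. In YT shYEATS2 17 of 32 members were called, 10 higher and 7 lower (53.1%, background 20.7%, 9.61% higher and 11.1% lower). In YT shZZZ3 7 were called, 5 higher and 2 lower (21.9%, background 10.0%, 4.40% higher and 5.62% lower). The family was chosen with earlier results of these data known, so these shares may not be independent of that choice. Median log2 fold changes over the 32 members were 0.03, -0.2, 0.36 and 0.34 in TC shYEATS2, TC shZZZ3, YT shYEATS2 and YT shZZZ3, beside -0.01, -0.01, -0.01 and 0.01 over all genes. MMP16 and MMP3 reached the count minimum only through YT shYEATS2, their highest group, and without them 16 of 30 members were called in YT shYEATS2, 8 of 30 for the shYEATS2 effect between the lines and 6 of 30 for the hairpin difference in YT, both described further on. Leaving out 1 library at a time gave 6 to 17 called members in YT shYEATS2, 3 to 10 in YT shZZZ3 and 1 to 4 in TC shZZZ3. The lowest of these was 6 without YT shNT replicate 2 in YT shYEATS2 and 3 without YT shNT replicate 1 in YT shZZZ3. The calls over all genes fell in the same fits, from 3821 to 1654 in the first and from 1846 to 519 in the second. In none of the called differences between a pair of groups did their libraries overlap. The same share over all genes was not counted, so this separation is not read as added support for the calls. Less RNA per cell and fewer cells that express a gene cannot be told apart in such bulk libraries. The p-values rest on the spread between the 2 libraries within each group, estimated jointly over all 6 groups and not from the compared groups alone. The study calls the libraries of a group biological duplicates, and the labels do not describe them as separate cultures.

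**Figure D3:**
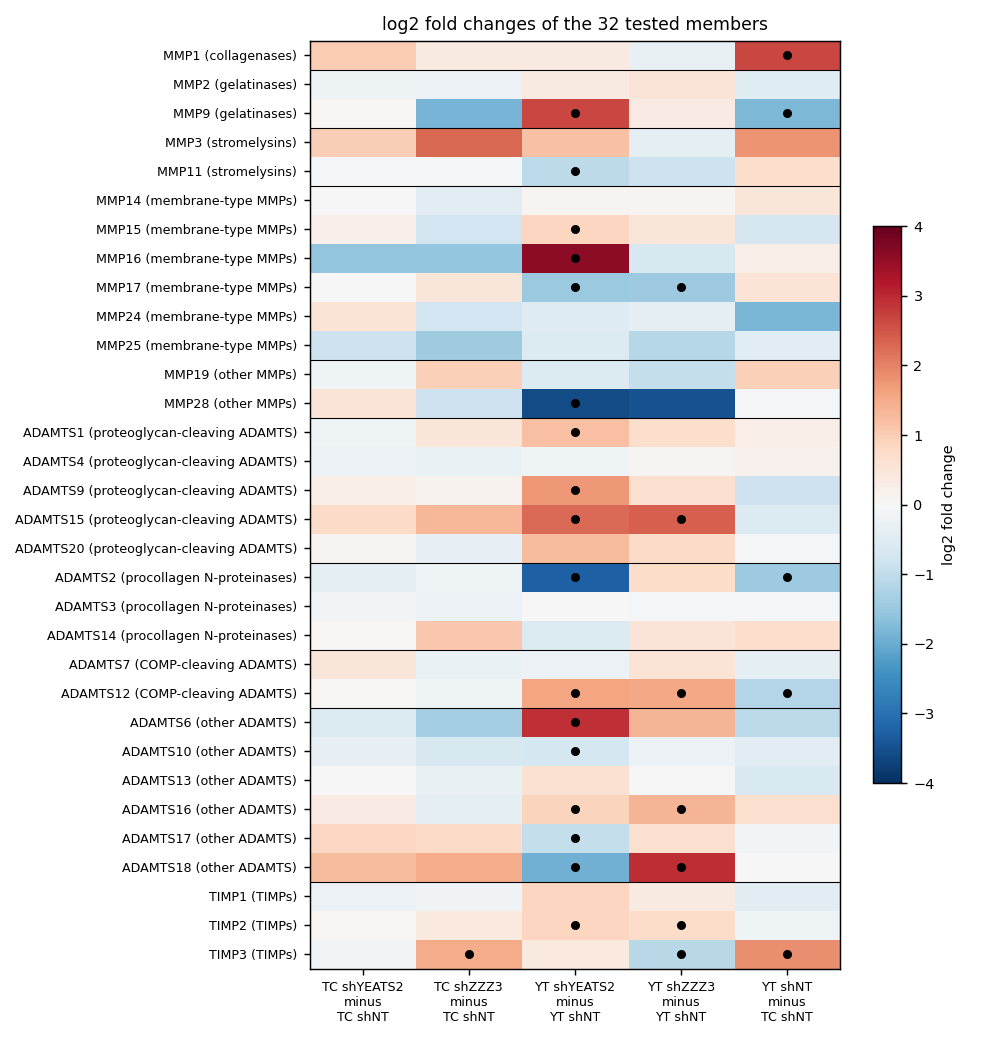
Rows are the 32 tested members ordered by class, columns are 5 comparisons, colour is the log2 fold change (red higher, blue lower in the first-named group) and a black dot marks an edgeR adjusted p under 0.05. YT shYEATS2 holds 17 dots and TC shYEATS2 none; the blue colour of ADAMTS18 and MMP28 rests on groups at or near 0 counts.

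Among the inhibitors, TIMP3 (ENSG00000100234, chr22:32801705-32863041, plus strand) was called in 6 of the 9 comparisons. It lay at 325 and 317 CPM in TC shNT, at 287 and 302 in TC shYEATS2 and at 894 and 902 in TC shZZZ3. In the YT lines it lay at 1101 and 1214 in YT shNT, at 1581 and 1423 in YT shYEATS2 and at 597 and 472 in YT shZZZ3. The shZZZ3 libraries therefore held more TIMP3 in TC and less in YT, and none of these groups overlapped its control. The fall of ZZZ3 itself did not pass the test in TC. There TC shNT replicate 1 had ZZZ3 at 25.6 CPM, beside 21.9 and 22.7 in TC shZZZ3. YT shYEATS2 had ZZZ3 at 31.4 and 30.7 CPM, beside 12.6 and 29.6 in YT shZZZ3, and it had less YEATS2 as well. Any link between the level of ZZZ3 and that of TIMP3 was not tested. The rise in TC was 1.48 ± 0.177 on the log2 scale (adjusted p = 0.00213), the change in YT was -1.11 ± 0.177 (adjusted p = 0.00301), and the difference between the 2 effects was -2.6 ± 0.251 (adjusted p = 0.000484). YEATS2 knock-down gave -0.12 ± 0.177 in TC (adjusted p = 1) and 0.38 ± 0.177 in YT (adjusted p = 0.155). The 2 hairpins differed in both lines, by -1.61 ± 0.177 in TC (adjusted p = 0.00172) and by 1.49 ± 0.177 in YT (adjusted p = 0.000707), as shYEATS2 minus shZZZ3. YT shNT stood 1.85 ± 0.177 above TC shNT (adjusted p = 0.00015). These 6 calls were kept in each of the 21 alternative analyses. TIMP3 lies inside SYN3, a gene on the opposite strand, whose counts were 0.262% of those of TIMP3.

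The 250 bases before the RefSeq start of TIMP3 (chr22:32801455-32801704, plus strand, RefSeq on GRCh38.p14) are printed because TIMP3 changed in opposite directions in the 2 lines. Lower case without capitals means that none of 3 motifs was found on either strand: GGAATG (bound by TEAD factors, the DNA-binding partners of both fusions), TGANTCA (AP-1) and CACGTG (the E-box bound by TFE3).
TIMP3: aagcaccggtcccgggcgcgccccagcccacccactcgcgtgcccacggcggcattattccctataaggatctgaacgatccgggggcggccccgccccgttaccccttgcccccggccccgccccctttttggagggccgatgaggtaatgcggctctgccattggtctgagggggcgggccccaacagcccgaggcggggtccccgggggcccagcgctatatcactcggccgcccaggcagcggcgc
No match says only that these letters are not in this window.

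TIMP2, which inhibits MMP2 and also takes part in its activation, lay at 438 and 478 CPM in YT shNT, at 842 and 807 in YT shYEATS2 and at 891 and 633 in YT shZZZ3. Both knock-downs lay above the control, by 0.85 ± 0.204 (adjusted p = 0.0141) and 0.73 ± 0.204 (adjusted p = 0.0439). Leaving out any one of the 4 YT shNT and YT shYEATS2 libraries ended the shYEATS2 call (0.79 to 0.92, adjusted p = 0.0581 to 0.104). The shZZZ3 call ended without either library of TC shZZZ3, YT shNT or YT shYEATS2 or without YT shZZZ3 replicate 1 (0.52 to 0.82, adjusted p = 0.0622 to 0.226), and when only its 2 groups were fitted (adjusted p = 0.139). In TC the values were 583 and 445 in shNT, 523 and 536 in shYEATS2 and 688 and 663 in shZZZ3, and neither knock-down passed the test. TIMP1 passed in no comparison, with 230 and 241 CPM in YT shNT and 451 and 401 in YT shYEATS2 (0.85 ± 0.303, adjusted p = 0.0696).

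Of the gelatinases, MMP9 (ENSG00000100985, chr20:46008908-46016561) moved and MMP2 did not pass the test. MMP9 lay at 2.38 and 2.19 CPM in YT shNT, at 12.2 and 17.6 in YT shYEATS2 and at 3.17 and 2.62 in YT shZZZ3. Only the shYEATS2 libraries stood apart from the YT control under the test (2.66 ± 0.45, adjusted p = 0.0021), and shYEATS2 exceeded shZZZ3 in YT by 2.33 ± 0.432 (adjusted p = 0.00825). In TC it lay at 9.27 and 6.88 in shNT, at 4.23 and 13 in shYEATS2 and at 1.91 and 2.46 in shZZZ3, so that the 2 shYEATS2 libraries straddled the control and both shZZZ3 libraries were below it (-1.85 ± 0.449, adjusted p = 0.0766). YT shNT was lower than TC shNT (-1.79 ± 0.454, adjusted p = 0.0301). The shYEATS2 effect was larger in YT than in TC by 2.58 ± 0.615 (adjusted p = 0.0217). The rise in YT shYEATS2 was kept in all 21 alternatives, whereas the interaction was lost without YT shNT replicate 1 or 2 or YT shYEATS2 replicate 2 (2.32 to 2.66, adjusted p = 0.0822 to 0.0965). It was 2.01 without TC shYEATS2 replicate 1 and 3.61 without TC shYEATS2 replicate 2, both called. The line difference was lost without TC shNT replicate 1 or either YT shNT library (-1.87 to -1.58, adjusted p = 0.102 to 0.182), and the hairpin difference without replicate 2 of YT shYEATS2 or YT shZZZ3 (2.03 to 2.22, adjusted p = 0.0503 to 0.085). SLC12A5-AS1, an antisense gene that overlaps MMP9 and had 59.8% of its mean counts, stayed between 3.04 and 5.37 CPM in all 12 libraries. MMP2 ranged from 351 to 611 CPM, with log2 fold changes from -0.5 to 0.52 in the 4 knock-downs and the line comparison and a lowest adjusted p of 0.169.

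MMP1, which cleaves fibrillar collagen, was low in TC and higher in YT. It lay at 0.381 and 1.19 CPM in TC shNT against 4.28 and 6.44 in YT shNT, with no overlap. The difference was 2.67 ± 0.649 (adjusted p = 0.0211), and it was lost without TC shNT replicate 1, YT shNT replicate 1 or YT shNT replicate 2 (2.06 to 2.91, adjusted p = 0.0644 to 0.142), and was 3.51 without TC shNT replicate 2. YT shYEATS2 held 7.24 and 6.55 CPM and YT shZZZ3 4.84 and 3.89. TC shYEATS2 held 0.634 and 2.71 and TC shZZZ3 0.609 and 1.44, and neither hairpin effect passed the test in either line. Of the stromelysins, MMP11, which unlike most MMPs leaves the cell already active, lay at 22.4 and 24 CPM in YT shNT, at 10.8 and 11.6 in YT shYEATS2 and at 16.1 and 9.73 in YT shZZZ3. Both knock-downs lay below the control, and shYEATS2 passed the test (-1.04 ± 0.303, adjusted p = 0.0321) while shZZZ3 did not (-0.84 ± 0.301, adjusted p = 0.108). For MMP11 the TC values were 16.7 and 11.6 CPM with shNT, 17 and 10.2 with shYEATS2 and 13.6 and 13.3 with shZZZ3, both knock-down pairs overlapping the shNT pair. The MMP11 call ended without any one library of TC shZZZ3, YT shNT or YT shYEATS2 (-1.09 to -0.98, adjusted p = 0.0539 to 0.165).

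The 6 membrane-type MMPs did not move together. MMP14 was the most abundant and ranged from 287 to 660 CPM, with a lowest adjusted p of 0.149 in the knock-downs and the line comparison. MMP16, a membrane-type protease that can also activate proMMP2, was near the detection limit in every group but one. It lay at 0.422 and 0.345 CPM in YT shNT (8 and 6 counts), at 5.74 and 5.52 in YT shYEATS2 (138 and 107 counts) and at 0.291 and 0.127 in YT shZZZ3. In the TC lines it lay at 0.229 and 0.382 in shNT, at 0.0352 and 0.0502 in shYEATS2 and at 0.0812 and 0 in shZZZ3. The 2 YT shYEATS2 libraries stood above all others. The change against YT shNT was 3.59 ± 0.469 (adjusted p = 0.00018), that against YT shZZZ3 4.24 ± 0.501 (adjusted p = 0.000207), and the interaction was 5.17 ± 1.1 (adjusted p = 0.000997). MMP16 passed the count minimum only through YT shYEATS2, with a mean of 4.3 counts over the other libraries, so that these tests are not independent of that filter. With no count minimum the values were 3.6, 4.22 and 5.19 and were called as well. The interaction rests on TC shYEATS2 at 1 count in each library, so its size depends on the prior count, and DESeq2 gave 6.74.

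MMP17, a membrane-type MMP held by a lipid anchor, lay at 7.44 and 7.13 CPM in YT shNT, at 2.12 and 2.99 in YT shYEATS2 and at 3.46 and 1.78 in YT shZZZ3. Both knock-downs were lower (-1.48 ± 0.394, adjusted p = 0.0205, and -1.44 ± 0.389, adjusted p = 0.0363), and the difference between them was -0.04 ± 0.404. For MMP17 the TC values were 6.18 and 3.58 CPM with shNT, 6.1 and 3.42 with shYEATS2 and 6.62 and 7 with shZZZ3, the shYEATS2 pair overlapping and the shZZZ3 pair above the shNT pair. The shYEATS2 call ended without any one of the 4 libraries it compared (-1.73 to -1.25, adjusted p = 0.0703 to 0.157). The shZZZ3 call ended without any one library of TC shZZZ3, YT shNT or YT shYEATS2, or without YT shZZZ3 replicate 2 (-1.45 to -1.06, adjusted p = 0.0596 to 0.161). MMP15 lay at 35.5 and 38.3 CPM in YT shNT and at 66.2 and 69.3 in YT shYEATS2 (0.87 ± 0.251, adjusted p = 0.0307), a call that ended without any one library of TC shZZZ3, YT shNT or YT shYEATS2 (0.82 to 0.94, adjusted p = 0.0521 to 0.165). YT shZZZ3 held MMP15 at 59.5 and 42.6 CPM, above the control without passing the test. For MMP15 the TC values were 70.4 and 47 CPM with shNT, 80.4 and 54.5 with shYEATS2 and 33.6 and 34.8 with shZZZ3, the shYEATS2 pair overlapping and the shZZZ3 pair below the shNT pair. MMP24 and MMP25 passed in no comparison. MMP24 lay at 20.1 and 10.5 CPM in TC shNT, at 36.9 and 8.24 in TC shYEATS2, and at no more than 4.33 in any YT library, and MMP24OS, on the opposite strand, held 578% of its counts. Of the remaining MMPs, MMP28 (epilysin) lay at 2.59 and 0.978 CPM in YT shNT, at 0.125 and 0 in YT shYEATS2 and at 0.0728 and 0.0846 in YT shZZZ3. In counts this was 66 in YT shNT against 3 in YT shYEATS2, a 26.3-fold ratio with a 95% counting interval of 8.61 to 131, and against 4 in YT shZZZ3, a 23.2-fold ratio (8.65 to 87.7). The edgeR test called the first (adjusted p = 0.0469) and not the second (adjusted p = 0.0702), and the call ended without any one library of TC shZZZ3, YT shNT or YT shYEATS2 (log2 fold change -4.38 to -2.77, adjusted p = 0.0644 to 0.238). For MMP28 the TC values were 3.01 and 0.765 CPM with shNT, 5.04 and 0.301 with shYEATS2 and 0.934 and 1.18 with shZZZ3, both knock-down pairs overlapping the shNT pair.

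MMP19 passed only as a difference between the lines in the effect of shZZZ3. It lay at 4.5 and 3.58 CPM in TC shNT and 7.11 and 8.77 in TC shZZZ3, but YT shNT held 6.97 and 8.74 and YT shZZZ3 4.48 and 3.59. TC shYEATS2 held 4.48 and 2.66 CPM and YT shYEATS2 5.24 and 5.32. The shZZZ3 libraries were above the control in TC and below it in YT. Their effects were 0.95 ± 0.288 (adjusted p = 0.171) and -0.94 ± 0.288 (adjusted p = 0.0598), with an interaction of -1.9 ± 0.408 (adjusted p = 0.0227). The interaction was lost in 8 of the 12 analyses that left out a library, those without TC shNT replicate 2 or YT shZZZ3 replicate 2 or either library of TC shZZZ3, YT shNT or YT shYEATS2 (-2.04 to -1.69, adjusted p = 0.0506 to 0.126). TMEM198B, which overlaps MMP19 on the other strand with 565% of its counts, ranged from 24.3 to 41.5 CPM.

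**Figure D4:**
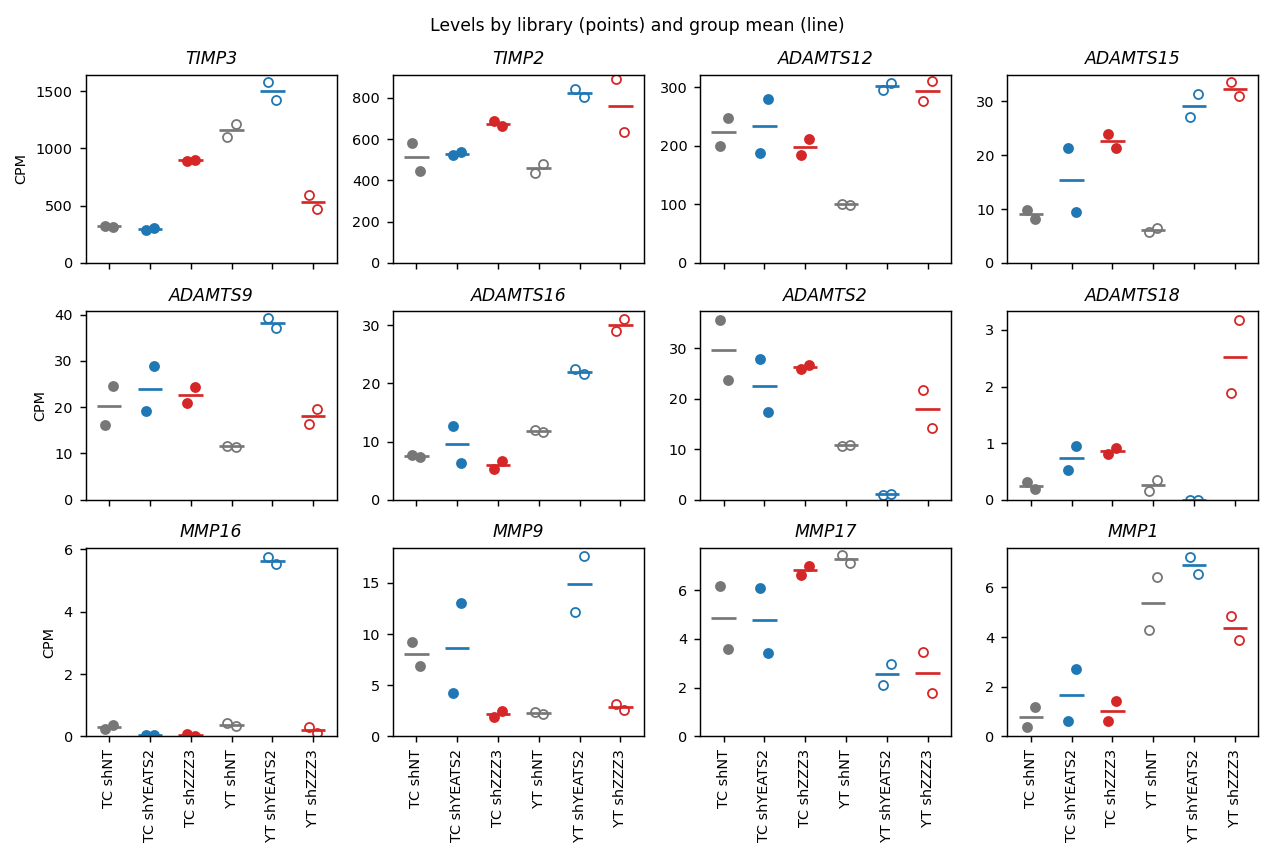
Each panel is one member, with CPM on a linear axis from 0, one point per library (filled for TC, open for YT, 2 per group) and the group mean as a line. The TIMP3 points of TC shZZZ3 lie above TC shNT while those of YT shZZZ3 lie below YT shNT, and the ADAMTS12 and ADAMTS15 points of both YT knock-downs lie above YT shNT.

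The ADAMTSs gave 10 of the 20 member calls that were kept in all 21 alternatives, and they were 16 of the 32 members tested. Promoter windows of 26 of the 45 members were found in the RefSeq table, and 3 windows, each the 250 bases before the RefSeq start on GRCh38.p14, are shown for an ADAMTS that rose in both YT knock-downs, one that rose in YT shYEATS2 and one that fell there. Capitals mark GGAATG or its reverse complement CATTCC (TEAD), TGANTCA (AP-1, both strands) and CACGTG (E-box). ADAMTS12 (chr5:33891991-33892240, minus strand) held a TEAD match beginning 119 bases and an AP-1 match beginning 84 bases before the start. ADAMTS6 (chr5:65481921-65482170, minus strand) held a TEAD match at 200 bases and an E-box at 63. ADAMTS2 (chr5:179345462-179345711, minus strand) held none of the 3.
ADAMTS12: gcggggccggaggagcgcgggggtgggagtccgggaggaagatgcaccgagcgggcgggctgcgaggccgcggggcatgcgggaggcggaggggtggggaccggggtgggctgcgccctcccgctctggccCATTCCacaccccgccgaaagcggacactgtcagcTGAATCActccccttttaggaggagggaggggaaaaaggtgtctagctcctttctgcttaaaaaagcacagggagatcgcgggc
ADAMTS6: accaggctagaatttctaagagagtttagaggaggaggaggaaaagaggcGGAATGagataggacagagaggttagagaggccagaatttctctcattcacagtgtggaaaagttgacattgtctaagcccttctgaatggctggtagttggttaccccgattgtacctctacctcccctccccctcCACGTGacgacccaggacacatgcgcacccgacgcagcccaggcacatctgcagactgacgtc
ADAMTS2: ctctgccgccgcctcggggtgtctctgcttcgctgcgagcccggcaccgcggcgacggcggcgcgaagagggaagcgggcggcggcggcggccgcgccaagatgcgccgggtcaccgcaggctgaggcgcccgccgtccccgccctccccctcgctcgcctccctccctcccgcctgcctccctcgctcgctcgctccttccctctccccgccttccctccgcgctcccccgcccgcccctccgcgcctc
Over the 26 windows the TEAD letters occurred in 3 (11.5%), the AP-1 letters in 4 (15.4%) and the E-box in 3 (11.5%), beside 11.9%, 6.57% and 6.34% of 35116 human promoter windows of the same length. The remaining TEAD window was that of ADAMTS20, which was called in no comparison. MMP15, higher in YT shYEATS2, held none of the 3 motifs, and ADAMTS17, lower there, held an E-box. A match describes letters in this window, not binding.

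ADAMTS12 (ENSG00000151388, chr5:33523535-33892019), which cleaves cartilage oligomeric matrix protein, lay at 101 and 98.7 CPM in YT shNT, at 296 and 308 in YT shYEATS2 and at 277 and 311 in YT shZZZ3. Both knock-downs were clear of the control, by 1.59 ± 0.207 (adjusted p = 0.000444) and 1.56 ± 0.207 (adjusted p = 0.00138), and their difference was 0.04 ± 0.206. In TC it lay at 200 and 247 in shNT, at 187 and 279 in shYEATS2 and at 184 and 212 in shZZZ3, with overlapping groups and effects of 0.06 ± 0.207 and -0.18 ± 0.207. YT shNT was the lowest of the 6 groups and stood below TC shNT (-1.16 ± 0.207, adjusted p = 0.0059). For ADAMTS12 the interactions were 1.53 ± 0.292 for shYEATS2 (adjusted p = 0.00742) and 1.73 ± 0.293 for shZZZ3 (adjusted p = 0.00874). Since all of these YT values share the YT shNT libraries, the 2 YT effects and the line difference are not separate observations. Both YT effects and the shYEATS2 interaction were kept in all 21 alternatives. The shZZZ3 interaction was lost without TC shZZZ3 replicate 1 or YT shNT replicate 2 (1.63 to 1.76, adjusted p = 0.055 to 0.0609) and the line difference without either YT shNT library (-1.2 to -1.17, adjusted p = 0.06 to 0.0697). ADAMTS7, the other member that cleaves this protein, passed in no comparison and ranged from 38.8 to 107 CPM. Its overlapping neighbour MORF4L1, on the opposite strand, held 541% of its counts.

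Of the proteoglycan-cleaving ADAMTSs, 3 of the 5 tested were called higher in YT shYEATS2 and 1 of them also in YT shZZZ3, beside 9.61% and 4.40% of all genes. ADAMTS15 (ENSG00000166106, chr11:130448645-130476645), a versicanase, lay at 5.7 and 6.44 CPM in YT shNT, at 27.1 and 31.3 in YT shYEATS2 and at 33.6 and 31 in YT shZZZ3. Both knock-downs exceeded the control, by 2.25 ± 0.319 (adjusted p = 0.000779) and 2.4 ± 0.318 (adjusted p = 0.00139), in all 21 alternatives. In TC it lay at 9.88 and 8.12 in shNT, at 21.3 and 9.49 in shYEATS2 and at 24 and 21.4 in shZZZ3. The TC shZZZ3 libraries were above the control as well without passing the test (1.32 ± 0.312, adjusted p = 0.0724), and neither interaction passed (1.48 ± 0.447, adjusted p = 0.062, and 1.07 ± 0.446, adjusted p = 0.237).

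ADAMTS9, which takes part in versican turnover, lay at 11.7 and 11.3 CPM in YT shNT, at 39.3 and 37.2 in YT shYEATS2 and at 16.4 and 19.7 in YT shZZZ3. The shYEATS2 libraries were the highest of the 12, above the control by 1.73 ± 0.258 (adjusted p = 0.00104, kept in all 21 alternatives) and above shZZZ3 by 1.08 ± 0.255 (adjusted p = 0.0261). For ADAMTS9 the TC values were 16.2 and 24.5 CPM with shNT, 19.1 and 28.9 with shYEATS2 and 21 and 24.3 with shZZZ3, both knock-down pairs overlapping the shNT pair. The shYEATS2 effect exceeded that in TC by 1.49 ± 0.363 (adjusted p = 0.0253). The hairpin difference ended without any one of the 6 YT libraries (0.92 to 1.23, adjusted p = 0.0558 to 0.179) and with scaling by library totals (adjusted p = 0.0675). The interaction ended without TC shYEATS2 replicate 1 or any one library of YT shNT or YT shYEATS2 (1.25 to 1.54, adjusted p = 0.0744 to 0.103) and with library totals (adjusted p = 0.0569). ADAMTS1 lay at 4.86 and 5.12 CPM in YT shNT, at 10.5 and 12.7 in YT shYEATS2 and at 7.46 and 8.71 in YT shZZZ3. All 4 knock-down libraries lay above the control, and shYEATS2 passed (1.2 ± 0.251, adjusted p = 0.0061). For ADAMTS1 the TC values were 4.16 and 4.11 CPM with shNT, 4.26 and 2.96 with shYEATS2 and 5.2 and 6.47 with shZZZ3, the shYEATS2 pair overlapping and the shZZZ3 pair above the shNT pair. The call in YT ended without either YT shNT library or YT shYEATS2 replicate 2 (1.07 to 1.25, adjusted p = 0.0527 to 0.0717). Its interaction (1.39 ± 0.36, adjusted p = 0.0314) was lost in 8 of the 12 analyses without a library, all but those without TC shNT replicate 2, TC shYEATS2 replicate 1 or a YT shZZZ3 library (1.19 to 1.54, adjusted p = 0.054 to 0.126), and with library totals (adjusted p = 0.0506) or only the 4 groups involved (adjusted p = 0.0542). ADAMTS4 ranged from 7.75 to 14 CPM and ADAMTS20 from 0.0812 to 0.723, and neither passed in any comparison.

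Of the procollagen N-proteinases, which remove the amino propeptides of fibrillar collagens, ADAMTS2 (ENSG00000087116, chr5:179110853-179345461) fell and ADAMTS3 and ADAMTS14 passed in no comparison. ADAMTS2 lay at 10.7 and 10.8 CPM in YT shNT, at 0.999 and 1.08 in YT shYEATS2 and at 21.8 and 14.3 in YT shZZZ3. In the TC lines it lay at 35.6 and 23.7 in shNT, at 27.8 and 17.4 in shYEATS2 and at 25.9 and 26.7 in shZZZ3. The 2 YT shYEATS2 libraries were below every other library. Their change against YT shNT was -3.27 ± 0.35 (adjusted p = 0.000104), that against YT shZZZ3 -4.01 ± 0.346 (adjusted p = 0.000118), and the difference of the shYEATS2 effects between the lines -2.88 ± 0.451 (adjusted p = 0.00193), each kept in all 21 alternatives. YT shZZZ3 lay above its control without passing the test (0.74 ± 0.291, adjusted p = 0.14). YT shNT was below TC shNT by -1.46 ± 0.29 (adjusted p = 0.0103), a call lost without either YT shNT library (-1.49 to -1.47, adjusted p = 0.0892 to 0.0899). ADAMTS3 ranged from 8.24 to 19.4 CPM and ADAMTS14 from 0.874 to 3.

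Of the 6 other ADAMTSs tested, 5 were called in YT shYEATS2, 2 higher and 3 lower (background 20.7% of all genes, 9.61% higher and 11.1% lower). ADAMTS16 lay at 12 and 11.6 CPM in YT shNT, at 22.4 and 21.6 in YT shYEATS2 and at 29.1 and 31.1 in YT shZZZ3. Both knock-downs were higher (0.89 ± 0.285, adjusted p = 0.0458, and 1.35 ± 0.283, adjusted p = 0.0128). For ADAMTS16 the TC values were 7.74 and 7.41 CPM with shNT, 12.7 and 6.33 with shYEATS2 and 5.24 and 6.68 with shZZZ3, the shYEATS2 pair overlapping and the shZZZ3 pair below the shNT pair. The shZZZ3 effect exceeded that in TC by 1.69 ± 0.408 (adjusted p = 0.0399). The shZZZ3 call ended without either YT shNT library (1.35 to 1.39, adjusted p = 0.103 to 0.116), and its interaction in 9 of the 12 analyses without a library, all but those without TC shNT replicate 2 or a TC shYEATS2 library (1.53 to 1.87, adjusted p = 0.0561 to 0.195). The shYEATS2 call ended without any one library of TC shZZZ3, YT shNT or YT shYEATS2 (0.88 to 0.92, adjusted p = 0.0668 to 0.189) and with library totals (adjusted p = 0.0641).

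ADAMTS18 was the one member called in opposite directions by the hairpins in YT. It lay at 0.158 and 0.345 CPM in YT shNT (3 and 6 counts), at 0 in both YT shYEATS2 libraries, and at 1.89 and 3.17 in YT shZZZ3 (52 and 75 counts). Against a floor of 3 counts per library, YT shYEATS2 was at least 1.8-fold lower than YT shNT (adjusted p = 0.0213) and at least 18.1-fold lower than YT shZZZ3 (adjusted p = 0.000554). YT shZZZ3 exceeded YT shNT by 2.95 ± 0.577 (adjusted p = 0.00361). For ADAMTS18 the TC values were 0.305 and 0.191 CPM with shNT, 0.529 and 0.954 with shYEATS2 and 0.812 and 0.909 with shZZZ3, both knock-down pairs above the shNT pair. The shYEATS2 effects differed between the lines with an adjusted p of 0.0155. The difference between the hairpins was kept in all 21 alternatives, whereas the shZZZ3 call ended without YT shNT replicate 1 (2.61, adjusted p = 0.0598), and the shYEATS2 call and its interaction ended without YT shNT replicate 2 or either YT shYEATS2 library (adjusted p = 0.0896 to 0.114 and 0.059 to 0.0895).

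ADAMTS6 lay at 3.48 and 2.24 CPM in YT shNT, at 20 and 24.9 in YT shYEATS2 and at 4.44 and 10.6 in YT shZZZ3. The shYEATS2 libraries were the highest of the 12, above the control by 2.93 ± 0.566 (adjusted p = 0.00502), and the effect exceeded that in TC by 3.47 ± 0.794 (adjusted p = 0.019). For ADAMTS6 the TC values were 3.74 and 8.65 CPM with shNT, 2.15 and 6.38 with shYEATS2 and 1.87 and 2.89 with shZZZ3, the shYEATS2 pair overlapping and the shZZZ3 pair below the shNT pair. The first call ended without YT shNT replicate 2 (2.67, adjusted p = 0.0639), and the second without TC shYEATS2 replicate 1 or any one library of YT shNT or YT shYEATS2 (2.91 to 3.84, adjusted p = 0.0586 to 0.099). Leaving out TC shNT replicate 2 gave 2.79 for the second, and leaving out TC shYEATS2 replicate 2 gave 4.44, both called. ADAMTS17 lay at 1.27 and 1.55 CPM in YT shNT, at 0.666 and 0.723 in YT shYEATS2 and at 2.37 and 2.07 in YT shZZZ3. The shYEATS2 libraries were the lowest of the 12, below YT shZZZ3 by -1.56 ± 0.316 (adjusted p = 0.00735) and with an effect below that in TC by -1.77 ± 0.436 (adjusted p = 0.0186). For ADAMTS17 the TC values were 1.56 and 1.48 CPM with shNT, 3.28 and 2.26 with shYEATS2 and 2.68 and 2.67 with shZZZ3, both knock-down pairs above the shNT pair. The change against YT shNT (-0.94 ± 0.332, adjusted p = 0.0479) was lost in 13 of the 21 alternatives, including DESeq2 (adjusted p = 0.101), every analysis without a library but the 2 without a TC shYEATS2 library (-1.07 to -0.79, adjusted p = 0.053 to 0.22), RLE size factors (adjusted p = 0.0502) and no count minimum (adjusted p = 0.105). Its hairpin difference was lost without either YT shYEATS2 library (-1.63 to -1.52, adjusted p = 0.0635 to 0.0911) and its interaction without TC shYEATS2 replicate 1, YT shNT replicate 2 or either YT shYEATS2 library (-1.81 to -1.45, adjusted p = 0.051 to 0.0941). ADAMTS10, which binds fibrillin microfibrils, lay at 28.8 and 27.7 CPM in YT shNT and 14.9 and 19.6 in YT shYEATS2 (-0.71 ± 0.202, adjusted p = 0.0282), a call that ended without YT shYEATS2 replicate 1 or any one library of TC shZZZ3 or YT shNT (-0.73 to -0.51, adjusted p = 0.053 to 0.217) and with no count minimum (adjusted p = 0.0616). YT shZZZ3 held ADAMTS10 at 23.5 and 23.9. For ADAMTS10 the TC values were 41.5 and 33.8 CPM with shNT, 28.6 and 31.6 with shYEATS2 and 23.3 and 25.4 with shZZZ3, both knock-down pairs below the shNT pair. ADAMTS13, the protease of von Willebrand factor, ranged from 6.26 to 11.9 CPM and passed in no comparison.

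The hairpins and the lines were then compared directly. In YT, shYEATS2 minus shZZZ3 called 7 of 32 members, 4 higher and 3 lower (21.9%, background 7.21%, 3.42% higher and 3.79% lower): MMP16, MMP9, TIMP3 and ADAMTS9 higher, and ADAMTS2, ADAMTS18 and ADAMTS17 lower. In TC the same difference called 1, TIMP3 (3.12%, background 1.20%, 0.619% higher and 0.581% lower). Both hairpins in YT called 6 members, 5 of them in the same direction (ADAMTS12, ADAMTS15, ADAMTS16 and TIMP2 higher and MMP17 lower) and ADAMTS18 in opposite directions, but these effects share the YT shNT libraries. Over all genes 20.7% were called in YT shYEATS2 and 10.0% in YT shZZZ3. The share of all genes called in both was not counted, so this overlap is not read as a result about the members. YT shNT minus TC shNT called 5 members, MMP1 and TIMP3 higher and MMP9, ADAMTS2 and ADAMTS12 lower (15.6%, background 9.23%, 5.58% higher and 3.65% lower). This split of 2 higher and 3 lower became 6 and 5 with a correction for GC content. The study states for its other RNA-seq that lines with CAMTA1 were collected before confluence and the rest at confluence. The sources used here do not say how the present lines were collected, and culture density and fusion cannot be told apart in that comparison.

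The effects of a hairpin were also tested for a difference between the lines. For shYEATS2 9 of 32 members were called, 6 positive and 3 negative as the YT effect minus the TC effect (28.1%, background 9.37%, 3.53% positive and 5.84% negative). For shZZZ3 there were 4, 2 in each direction (12.5%, background 4.32%, 1.46% positive and 2.86% negative). With the GC correction the split for shYEATS2 became 9 and 7 and that for shZZZ3 4 and 3, and in YT shZZZ3 the split of 5 and 2 became 7 and 6. That last split was 5 and 5 with DESeq2 and 5 higher against 6 lower with the replicate block. Library totals gave 4 and 3 for the shYEATS2 interaction, and over all genes the GC correction moved that interaction from 650 of 1725 calls positive to 1848 of 3652.

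**Figure D5:**
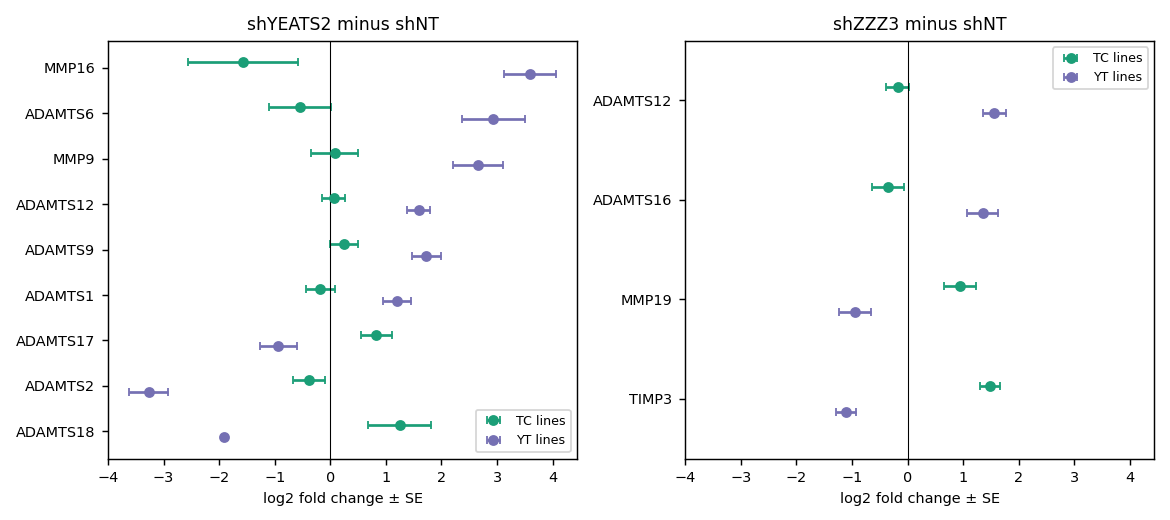
Points are log2 fold changes against shNT in the TC lines (green) and the YT lines (purple), with bars of 1 SE, for the members whose effects differed between the lines under shYEATS2 (left) or shZZZ3 (right). In the right panel TIMP3 lies at 1.48 in TC and -1.11 in YT, and in the left panel the YT point of ADAMTS18 has no bar because YT shYEATS2 was at 0.

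Genes that work beside these proteases were taken from 8 lists of 54 genes, chosen with earlier results of these data known, and 48 of them were tested. They gave 0 calls in TC shYEATS2 (background 0.0434% of all genes) and 7 in TC shZZZ3 (14.6%, 4 higher and 3 lower, background 1.53%). In YT shYEATS2 20 were called (41.7%, background 20.7%), 5 higher and 15 lower, and in YT shZZZ3 16 (33.3%, background 10.0%), 5 higher and 11 lower. The median log2 fold changes over the 48 were -0.03, 0.1, -0.28 and -0.18. The 21 alternatives are reported for members only, so how far the calls of these partner genes depend on the processing is not given. Among the substrates, versican (VCAN), the main target of the proteoglycan-cleaving ADAMTSs, lay at 34.7 and 23 CPM in YT shNT, at 161 and 150 in YT shYEATS2 and at 320 and 534 in YT shZZZ3. Both knock-downs were higher (2.43 ± 0.423, adjusted p = 0.00311, and 3.88 ± 0.422, adjusted p = 0.000811). Brevican (BCAN) lay at 19.3 and 22.7 CPM in YT shNT, at 0.708 and 0.671 in YT shYEATS2 and at 2.84 and 2.66 in YT shZZZ3, lower in both (-4.76 ± 0.849, adjusted p = 0.00242, and -2.89 ± 0.706, adjusted p = 0.0289). Tenascin-C (TNC) was higher in both YT knock-downs (1 ± 0.281 and 2.01 ± 0.281) and fibronectin (FN1) was lower in YT shZZZ3 (-1.63 ± 0.275, adjusted p = 0.00461) and in TC shZZZ3 (-1.29 ± 0.275, adjusted p = 0.0465).

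The plasminogen activator system makes plasmin, which can activate proMMPs. PLAT, tissue plasminogen activator, lay at 812 and 910 CPM in YT shNT, at 221 and 234 in YT shYEATS2 and at 254 and 232 in YT shZZZ3, lower in both (-1.92 ± 0.26, adjusted p = 0.000604, and -1.83 ± 0.26, adjusted p = 0.00187), and it was also lower in TC shZZZ3 (-1.45 ± 0.26, adjusted p = 0.0204). PLAU, urokinase, was lower in YT shYEATS2 (-0.8 ± 0.222, adjusted p = 0.0262) and higher in TC shZZZ3 (1.22 ± 0.223, adjusted p = 0.0223). SERPINE2 rose in YT shYEATS2 (0.71 ± 0.195). Of the proprotein convertases, PCSK5 lay at 51.7 and 48.2 CPM in YT shNT, at 6.04 and 6.25 in YT shYEATS2 and at 25.8 and 32 in YT shZZZ3, and only the shYEATS2 libraries passed (-3.01 ± 0.263, adjusted p = 4.94e-05), below shZZZ3 by -2.22 ± 0.263 (adjusted p = 0.000791).

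Of the 6 ADAMTS-like proteins, which resemble ADAMTSs without a protease domain, 3 were called in YT shYEATS2 and 2 in YT shZZZ3, all lower, beside 11.1% and 5.62% of all genes called lower. ADAMTSL1 lay at 8.35 and 8.08 CPM in TC shNT, at 1.34 and 1.28 in TC shZZZ3, at 2.27 and 2.7 in YT shNT and at 0.624 and 0.826 in YT shYEATS2. Its fall was -2.57 ± 0.286 in TC shZZZ3 (adjusted p = 0.00117) and -1.67 ± 0.326 in YT shYEATS2 (adjusted p = 0.0028). ADAMTSL3 lay at 2.43 and 2.76 CPM in YT shNT and at 0 and 0.0516 in YT shYEATS2 (adjusted p = 0.000504), and PAPLN at 79.6 and 81.3 in YT shNT, at 33.6 and 39.9 in YT shYEATS2 and at 20.9 and 19.8 in YT shZZZ3 (-1.13 ± 0.261, adjusted p = 0.0118, and -1.98 ± 0.262, adjusted p = 0.00138). Of other matrix proteases, HTRA1 rose in YT shYEATS2 (1.28 ± 0.187, adjusted p = 0.000826), CTSS fell in both YT knock-downs (-2.28 ± 0.256 and -1.24 ± 0.253), CTSK fell in both (-1.18 ± 0.344 and -1.19 ± 0.34) and CTSL fell in YT shZZZ3 (-0.79 ± 0.161). The inhibitor TFPI2 was lower in YT shYEATS2 (-0.64 ± 0.181), and the sheddase ADAM12 was lower in YT shYEATS2 (-0.83 ± 0.216) while ADAM19 was higher in YT shZZZ3 (1.1 ± 0.175). Of the 6 transcription factors known to act on MMP promoters, JUN rose in TC shZZZ3 (1.26 ± 0.23), YT shYEATS2 (0.75 ± 0.232) and YT shZZZ3 (1.78 ± 0.231), FOSL1 rose in TC shZZZ3 (1.48 ± 0.29), FOS fell in both YT knock-downs (-0.89 ± 0.271 and -0.91 ± 0.268), ETS2 fell in YT shYEATS2 (-1.28 ± 0.186) and RUNX2 fell in YT shZZZ3 (-1.29 ± 0.248).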

How the data were processed

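Gene-level counts of 12 RNA-seq libraries of SW872 cells were used. The authors deposited raw counts per Ensembl gene. The RNA-seq methods of the study name its lines without hairpins and do not describe the hairpin libraries separately. They give poly(A) enrichment, 75 bp paired-end TruSeq stranded reads and, for SW872, the bcbio-nextgen pipeline on hg38. HISAT2 and Salmon are both described, and the tool that made these counts and its strand setting are not given in the sources used here. Groups came from the labels. From the counts, 18415 genes (mean count 5 or higher) were tested with the edgeR 4.0.16 quasi-likelihood test in R 4.3.3 (TMM scaling, 6 groups of 2 libraries in one fit, robust, prior count 2, 6 residual degrees of freedom), with Benjamini-Hochberg adjustment over all of them and calls under 0.05. Values are log2 fold changes ± SE, and CPM uses TMM-scaled totals. A floor of 3 counts per library was used against groups at 0, and floors and counting intervals cover counting error only. The code was tested on simulated data. The 10 kinds of alternatives included DESeq2 1.42.0, other scalings and filters, a GC correction, a replicate block and each library left out, 21 in all. Members called in at least 1 of 9 comparisons were described, with the highest of each class and the partner genes called in at least 2 comparisons, except for a result that is not reported here. Gene positions are from GENCODE on hg38. The members and lists were chosen with earlier results of these data known.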

Additional observations from a re-analysis of the deposited data

Results flagged for a closer look

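For 13 interactions, each the YT effect of a hairpin minus its TC effect on the log2 scale, the difference between the lines itself passed the edgeR test. Under shYEATS2 these were MMP16 at 5.17 (a fitted value that depends on the prior count, with TC shYEATS2 at 1 count in each library, and a gene that passed the count minimum only through YT shYEATS2), ADAMTS6 at 3.47, MMP9 at 2.58, ADAMTS12 at 1.53, ADAMTS9 at 1.49 and ADAMTS1 at 1.39. In the other direction stood ADAMTS17 at -1.77 and ADAMTS2 at -2.88. ADAMTS18 had a fitted value of -3.18, which depends on the prior count since YT shYEATS2 was at 0. Under shZZZ3 the interactions were ADAMTS12 at 1.73, ADAMTS16 at 1.69, MMP19 at -1.9 and TIMP3 at -2.6. Of these, MMP16, ADAMTS2, ADAMTS12 under shYEATS2 and TIMP3 stayed past the threshold in all 21 alternatives.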

How the results depend on the processing

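Of the 51 called values of members, none changed direction, 20 were kept in all 21 alternatives (3 of them for MMP16, which passed the count minimum only through its highest group), 31 were lost when some library was left out and 7 in another alternative. A group then had 1 library, assumed to vary like the others, and the cause of each loss was not tested beyond the smaller number of libraries. The counts of called members moved by more than 1.5 times as follows. For TC shZZZ3 the count of 1 became 4 with DESeq2, 7 with no count minimum, 5 with GC correction, 3 with the replicate block, 6 with the replicate block and GC correction, and 2 with only its groups fitted. For YT shZZZ3 the count of 7 became 13 with GC correction, 11 with the replicate block and 17 with both. The shYEATS2 interaction went from 9 to 16 with GC correction and 17 with the replicate block and GC correction. The shZZZ3 interaction went from 4 to 8 with DESeq2, 10 with no count minimum, 7 with GC correction, 7 with the replicate block and 12 with both. YT shNT minus TC shNT went from 5 to 8 with DESeq2, 10 with no count minimum, 11 with GC correction and 12 with the replicate block and GC correction. The hairpin difference in TC went from 1 to 4 with DESeq2, 6 with no count minimum, 4 with GC correction and 5 with the replicate block and GC correction, and that in YT from 7 to 12 with the replicate block and GC correction. The cause of these moves was not tested. The labels do not tie libraries of a number together. Over 13258 genes the differences between replicates correlated at 0.18 to 0.898 in all 6 pairs among TC shNT, TC shYEATS2, TC shZZZ3 and YT shZZZ3, but at -0.438 to -0.00225 between YT shNT and each other group, so the numbers were not taken as pairs of libraries. Leaving out 1 library gave 0 to 0 called members in TC shYEATS2, 1 to 4 in TC shZZZ3, 6 to 17 in YT shYEATS2, 3 to 10 in YT shZZZ3, 3 to 12 and 1 to 7 for the shYEATS2 and shZZZ3 interactions, 1 to 8 for YT shNT minus TC shNT, and 1 to 4 and 4 to 8 for the hairpin difference in TC and YT. Over all genes, GC correction called 3652 genes against 1725 for the shYEATS2 interaction, and DESeq2 called 117 against 8 in TC shYEATS2. Fitted values that rest on groups of few counts moved with DESeq2, the MMP16 interaction from 5.17 to 6.74, ADAMTS18 in YT shYEATS2 from -1.92 to -4.85 and MMP28 there from -3.58 to -4.72, each still called.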
